A study of Homo sapiens with 16 samples.

Results

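SLC-0111 (also U-104), a sulfonamide inhibitor of the tumour-linked carbonic anhydrases IX and XII, was compared with its solvent in normoxia. The cells were HUH6, an established human hepatoblastoma line. The groups were 4 libraries of cells given 100 µM SLC-0111 for 48 h and 4 libraries of cells given DMSO for 48 h, both kept in normoxia in DMEM with fetal bovine serum. They were chosen by the sample labels and are 8 of the 16 libraries of the series. The other 8 libraries, 4 with SLC-0111 and 4 with DMSO, came from the same line, dose and time in hypoxia, at 1% oxygen by partial pressure. They entered the shared estimate of the spread and the test of whether an effect differed with oxygen. Of 58735 genes in the count table, 18385 had enough counts to be tested. The labels call the libraries technical replicates of 1 cell line at 1 dose and 1 time, so every p-value measures the spread between such libraries and not between separate cultures. In bulk RNA, fewer cells of a type and less RNA per cell cannot be told apart.

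Carbonic anhydrases IX and XII sit at the cell surface and interconvert carbon dioxide and bicarbonate, which helps tumour cells to export acid. When amino acids, protein folding or mitochondria are disturbed, the kinases that phosphorylate eIF2α slow translation and let the transcription factor ATF4 be made. ATF4 and its partners of the C/EBP family are known to switch on amino acid transporters, serine and asparagine synthesis and tRNA charging enzymes. Dividing cells, in turn, keep the genes of replication, mitosis and ribosome production high. Hepatoblastoma cells also express many genes of the fetal liver.

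Levels are counts per 1000000 counts of the TMM-scaled library (CPM). They are given for SLC-0111 replicates 1, 3 and 4 and a library whose number could not be settled from the labels (the unnumbered library), in this order, and for DMSO replicates 1 to 4. For every gene given library by library, all 4 SLC-0111 libraries lay on one side of all 4 DMSO libraries. Means are given ± SD (n = 4 libraries). CPM is not divided by gene length, so levels are compared between groups and not between genes. Changes are log2 fold changes ± SE, SLC-0111 over DMSO, and genes count as called below an adjusted p of 0.05 (Benjamini-Hochberg) in edgeR's quasi-likelihood test over all 18385 genes. Where a list had 0 genes called in a direction in normoxia, DESeq2 and limma-voom called 0 too and at most 2 reached an unadjusted p under 0.05, save for the hormone, glutathione, urea cycle and small ribosomal subunit lists, whose values are given.

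The SLC-0111 libraries held 21.6, 28.2, 40.1 and 21.9 M counts (M is 1000000) and the DMSO libraries 22.9, 25.2, 30.1 and 31.6 M. Pearson's r of log2 CPM was 0.989 to 0.993 among SLC-0111 libraries, 0.993 to 0.995 among DMSO libraries and 0.986 to 0.991 between the groups. SLC-0111 replicate 4 stood apart from the other libraries. Only 80.6% of its counts lay in protein-coding genes and 15.3% in mitochondrial transcripts, against 86.8 to 90.2% and 8.7 to 11.2% in the other SLC-0111 libraries and 89.1 to 90.8% and 8.5 to 9.3% in DMSO. Counts that changed most without this library are also given without it. Of 9 markers of the line 8 were tested, with 2 called higher and 2 lower and a median of log2 −0.04. GPC3 and HNF4A were higher with SLC-0111, by log2 0.32 and 0.28, and the keratins KRT8 and KRT18 were lower. Of 9 markers of blood, endothelial and fibroblast cells, 6 had too few counts to be tested. Summed, the 9 gave 70.4 to 81.4 counts per 1000000 in SLC-0111 libraries and 83.1 to 87.4 in DMSO libraries, nearly all from PECAM1, an endothelial adhesion protein that was not called, and PDGFRB, a receptor of fibroblasts and stellate cells. PDGFRB fell to 16.9 ± 0.578 CPM with SLC-0111, against 28.6 ± 1.32 CPM with DMSO (log2 −0.76 ± 0.06, adjusted p = 1.48e-09). The endothelial cadherin CDH5 was called higher at 0.384 ± 0.119 CPM with SLC-0111, against 0.110 ± 0.153 CPM with DMSO, and in 2 of the 8 fits that leave out 1 library. The blood marker CD68 had 0 counts in the SLC-0111 libraries. The part of these cell types in the results was not tested.

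Of the targets of the compound, CA9 was at the limit of detection, with 5 counts over the 4 SLC-0111 libraries and 7 over the 4 DMSO libraries. CA12 rose with SLC-0111, to 5.05 ± 0.359 CPM with SLC-0111, against 2.66 ± 0.393 CPM with DMSO (log2 0.91 ± 0.12, adjusted p = 6.11e-06). Among the 12 carbonic anhydrases tested, 4 were called higher and 2 lower, where 12.4% of all tested genes were called higher and 11.2% lower. The cytosolic CA2 rose (log2 0.62 ± 0.09, adjusted p = 3.76e-05), and CA4, which is anchored at the cell surface, fell to 9.69, 8.27, 8.47 and 8.10 CPM with SLC-0111, against 14.5, 16.8, 16.7 and 17.0 CPM with DMSO (log2 −0.92 ± 0.09, adjusted p = 8.89e-08). The SLC-0111 libraries were close together, and the lowest DMSO library for CA4 was replicate 1.

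In all, 2271 genes were called higher (12.4%) and 2067 lower (11.2%) with SLC-0111, together 4338 (23.6%). The 4 SLC-0111 libraries lay above the 4 DMSO libraries in 2776 genes (15.1%) and below them in 2673 (14.5%). When only library size was used for scaling, 1396 were higher and 3141 lower. Most called changes were small. The median change of the higher genes was log2 0.37, 65.6% of them lay under log2 0.5, and 209 (1.14%) rose at least 2-fold. The lower genes had a median of log2 −0.27, 87.7% of them changed by less than log2 0.5, and 55 (0.299%) fell at least 2-fold. Protein-coding genes were called in equal numbers in the 2 directions, 1993 higher and 1991 lower of 13572. Long noncoding RNAs were called higher more often than lower, 174 (5.90%) against 45 (1.53%) of 2948, both under the shares of all tested genes. The same lean was seen in pseudogenes, 78 higher against 18 lower of 1417. It was also seen in tested genes of any class under 1 CPM, 187 higher against 64 lower of 4577. Whether these leans followed the protein-coding share of the libraries, 80.6 to 90.2% with SLC-0111 and 89.1 to 90.8% with DMSO, was not tested. Calls also varied with exonic length, the number of bases of a gene that any of its annotated exons covers. Among the 3393 protein-coding genes with the longest exonic length 20.5% were higher and 10.6% lower. Among the 3393 with the shortest 10.7% were higher and 16.7% lower. Without SLC-0111 replicate 4 these shares were 16.6% and 9.11% in the longest group, and 11.2% and 11.9% in the shortest.

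**Figure D1:**
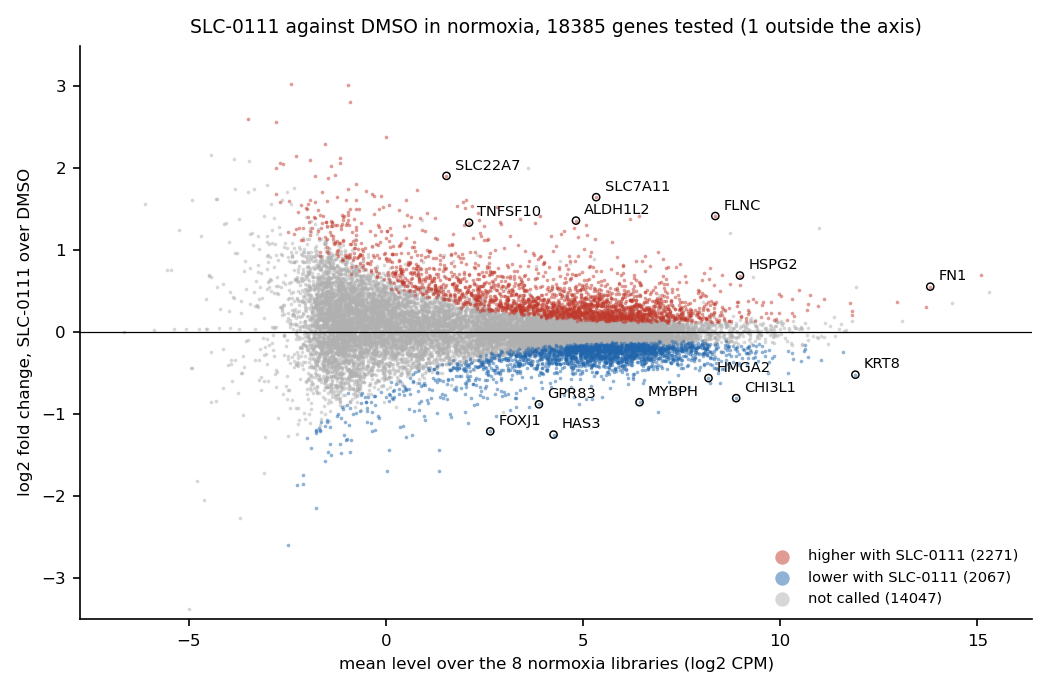
Each point is 1 of 18385 tested genes, with its mean level over the 8 normoxia libraries on the x axis (log2 CPM) and its log2 fold change, SLC-0111 over DMSO, on the y axis. Red points (2271) were called higher with SLC-0111, blue points (2067) lower and grey points were not called; large rises outnumber large falls, with SLC7A11 at log2 1.65 and HAS3 at log2 −1.25.

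Genes of the ATF4 pathway and, in a larger share, the enzymes of serine, one-carbon and asparagine metabolism were called higher with SLC-0111. ATF4 itself rose to 529 ± 42.5 CPM with SLC-0111, against 425 ± 18.7 CPM with DMSO (log2 0.32 ± 0.06, adjusted p = 0.000337), and its dimer partner CEBPG rose by log2 0.27. Of 15 tested factors and feedback genes of the pathway, 6 were called higher and 1 lower. The feedback pseudokinase TRIB3 had 58.7, 52.3, 57.2 and 53.1 CPM with SLC-0111, against 33.7, 32.7, 33.6 and 31.5 CPM with DMSO (log2 0.75 ± 0.10, adjusted p = 2.48e-05). DDIT4, an inhibitor of the growth kinase mTORC1, had 33.1, 32.7, 29.6 and 33.9 CPM with SLC-0111, against 13.6, 14.0, 13.6 and 13.5 CPM with DMSO (log2 1.24 ± 0.27, adjusted p = 0.00525). Within each group the libraries of both genes were close together. The translation repressor gene EIF4EBP1 rose by log2 0.31. EIF2AK4, which encodes the amino acid sensing kinase GCN2, was the member that fell (log2 −0.22 ± 0.05, adjusted p = 0.00126). 

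Enzymes of serine, proline, asparagine and mitochondrial folate metabolism had 12 of 16 members higher and 1 lower, with a median of log2 0.53 beside 0.02 over all tested genes. The 3 steps from glycolysis to serine were each higher: PHGDH by log2 0.65, PSAT1 by 0.70 and PSPH by 0.29. PSAT1, a transaminase gene with high counts, had 459, 461, 437 and 452 CPM with SLC-0111, against 288, 280.3, 278 and 269 CPM with DMSO (log2 0.70 ± 0.05, adjusted p = 1.01e-09). In mitochondria, SHMT2 splits serine into glycine and a one-carbon unit, MTHFD2 and MTHFD1L carry that unit on to formate, and ALDH1L2 oxidises it to carbon dioxide. SHMT2 rose by log2 0.78, MTHFD2 by 0.94 and MTHFD1L by 0.41. ALDH1L2 had 37.6, 40.8, 47.3 and 37.1 CPM with SLC-0111, against 16.8, 16.2, 16.2 and 14.4 CPM with DMSO (log2 1.36 ± 0.08, adjusted p = 2.94e-11), with replicate 4 the highest. Their cytosolic counterpart MTHFD1 fell (log2 −0.20 ± 0.06, adjusted p = 0.0106), and the cytosolic SHMT1 was not called (log2 0.11). Mitochondrial PCK2, which turns oxaloacetate into phosphoenolpyruvate, had 109.7, 103, 103 and 107 CPM with SLC-0111, against 42.5, 40.0, 39.6 and 39.4 CPM with DMSO (log2 1.39 ± 0.06, adjusted p = 2.11e-13). Asparagine synthetase ASNS was low in this line, at 2.10 ± 0.507 CPM with SLC-0111, against 0.801 ± 0.201 CPM with DMSO, and rose by log2 1.43.

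Sequence before the start sites is shown for 3 of these genes, because the letters that ATF4 and C/EBP factors are known to bind, TGATGNAA, occur there on one or the other strand (in capitals). The stretches are from RefSeq on GRCh38.p14 and are read along each gene's strand. The CHAC1 stretch is chr15:40953240-40953291, plus strand, that of ASNS is chr7:97872447-97872498, minus strand and that of MTHFD1L is chr6:150866335-150866386, plus strand.
CHAC1: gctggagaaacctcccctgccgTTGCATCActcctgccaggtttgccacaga
ASNS: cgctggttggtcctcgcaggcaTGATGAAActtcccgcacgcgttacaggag
MTHFD1L: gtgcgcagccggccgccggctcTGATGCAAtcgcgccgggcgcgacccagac
The motif starts 209 bases before the start in CHAC1, 68 in ASNS and 129 in MTHFD1L. A window of 300 bases (250 before to 50 after the start) was found for 11304 of the 18385 tested genes, and 1.79% of these windows hold the motif. It is in 8 of the 40 windows found for the tested ATF4 pathway genes, amino acid enzymes and amino acid transporters (20%), and in 5 of the 27 whose gene was called. Among all genes called higher the share is 1.88%, and among those called lower 1.43%. ATF3, GOT1 and SLC3A2 hold it and were not called, with log2 0.64, −0.12 and 0.23. CHAC1, which breaks down glutathione, had 5.19, 4.53, 5.94 and 5.25 CPM with SLC-0111, against 1.87, 1.84, 1.93 and 1.56 CPM with DMSO (log2 1.55 ± 0.15, adjusted p = 9.31e-08).

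Of 20 amino acid transporters, 15 were called higher and 1 lower, with a median of log2 0.33. SLC7A11, the transport chain of the antiporter that brings in cystine for glutamate, had 57.8, 62.5, 68.1 and 56.5 CPM with SLC-0111, against 19.2, 21.1, 19.3 and 18.6 CPM with DMSO (log2 1.65 ± 0.07, adjusted p = 4.8e-14). Replicate 4 was the highest of the SLC-0111 libraries for it. Carriers of neutral amino acids followed, with the alanine, serine and cysteine carrier SLC1A4 at log2 0.87, the glycine carrier SLC6A9 at 0.80 and the glutamine carrier SLC38A1 at 0.65. SLC38A4, a liver carrier of neutral amino acids, rose by log2 0.73. The leucine carrier SLC7A5 rose by log2 0.21, and the cationic amino acid carrier SLC7A1 by 0.40. SLC3A2, the heavy chain that both SLC7A11 and SLC7A5 need, was not called. It had 327 ± 7.76 CPM with SLC-0111, against 279 ± 7.98 CPM with DMSO. The fit took its spread from all 16 libraries. When 1 normoxia library was left out, edgeR's adjusted p for SLC3A2 was 0.252 to 0.314. The missing call does not show that its level was unchanged. SLC38A2, a carrier known to answer amino acid shortage, was not called (log2 −0.12), and the lysosomal and plasma membrane carrier SLC36A4 fell, at log2 −0.30. Outside the list, the intestinal and renal peptide carrier SLC15A1 (PEPT1) had 7.49, 6.98, 8.65 and 6.40 CPM with SLC-0111, against 2.64, 3.15, 2.76 and 2.97 CPM with DMSO (log2 1.37 ± 0.11, adjusted p = 4e-09).

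Of the 20 cytosolic aminoacyl-tRNA synthetases, 11 were called higher and 4 lower, and of the 17 mitochondrial ones 1 was higher and 3 lower. The cytosolic enzymes for alanine (AARS), cysteine (CARS), glycine (GARS) and isoleucine (IARS) rose by log2 0.50, 0.51, 0.48 and 0.48. AARS had 300.1, 289, 280.1 and 290.3 CPM with SLC-0111, against 210.0, 206, 202 and 201 CPM with DMSO (log2 0.50 ± 0.05, adjusted p = 2.5e-07). Those for phenylalanine (the alpha chain FARSA), valine (VARS), histidine (HARS) and arginine (RARS) fell, at log2 −0.32, −0.27, −0.22 and −0.17. In mitochondria the proline enzyme PARS2 rose (log2 0.29 ± 0.09, adjusted p = 0.0232), while the valine enzyme VARS2 fell (log2 −0.41 ± 0.06, adjusted p = 2.89e-05) and the tyrosine enzyme YARS2 fell, at log2 −0.25. HARS was called in 5, RARS in 5 and PARS2 in 4 of the 8 fits that leave out 1 library. Without SLC-0111 replicate 4 the cytosolic counts were 12 higher and 3 lower, and the mitochondrial ones 1 and 2.

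**Figure D2:**
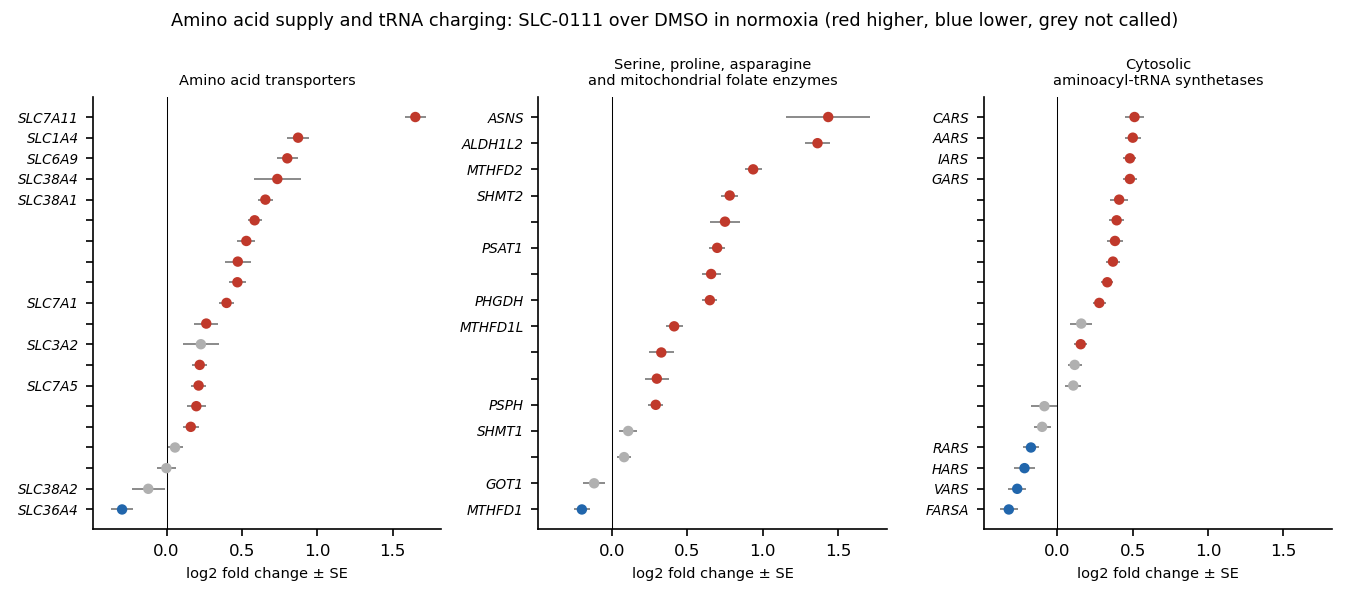
Log2 fold changes ± SE, SLC-0111 over DMSO in normoxia, of 20 amino acid transporters, 16 enzymes of serine, proline, asparagine and mitochondrial folate metabolism, and 20 cytosolic aminoacyl-tRNA synthetases, each a row, with a label where the text names the gene. Red genes were called higher, blue lower and grey not; the 3 panels are mostly red (15, 12 and 11 genes), with 1, 1 and 4 blue genes.

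Of 14 tested secreted hormones of stress and metabolism, 4 rose and 0 fell by edgeR's test (at an unadjusted p under 0.05 and by DESeq2 1 was lower, and by limma-voom 0). Stanniocalcin STC2 had 210.2, 214, 211 and 204 CPM with SLC-0111, against 125, 126, 120.5 and 111 CPM with DMSO (log2 0.80 ± 0.11, adjusted p = 4.08e-05). The calcitonin family peptide ADM2 had 26.3, 27.0, 26.3 and 26.8 CPM with SLC-0111, against 14.3, 12.6, 12.9 and 11.8 CPM with DMSO (log2 1.05 ± 0.07, adjusted p = 1.08e-10). INHBE, the activin E chain of the liver, rose by log2 0.84, and FGF21, a fasting hormone, was called at 0.512 ± 0.198 CPM with SLC-0111, against 0.221 ± 0.110 CPM with DMSO with overlapping libraries (it was called in 4 of the 8 fits that leave out 1 library). The groups did not overlap for STC2, ADM2 and INHBE.

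Genes that answer oxidants, metals and foreign compounds were higher in part. NRF2 is the factor that induces antioxidant enzymes, and of 17 tested genes of its pathway 9 were higher and 0 lower. The efflux pump ABCC3 had 12.5, 11.0, 12.8 and 12.9 CPM with SLC-0111, against 5.97, 4.87, 5.90 and 5.04 CPM with DMSO (log2 1.17 ± 0.09, adjusted p = 1.27e-09). OSGIN1 rose by log2 0.97. Of 21 genes of the glutathione and thioredoxin system, 7 were higher and 0 lower, among them GCLM, a subunit of the first enzyme of glutathione synthesis, at log2 0.54, thioredoxin reductase TXNRD1 at 0.45 and glutaredoxin GLRX at 0.42. When only library size was used for scaling, 4 of them were higher and 3 lower. DESeq2 and limma-voom each called 2 lower, with 3 lower at an unadjusted p under 0.05 by edgeR. TGACNNNGC, the core of the antioxidant response element that NRF2 is known to bind, was no more common in these 2 lists. It is in 4 of the 30 windows found for them (13.3%), against 15.2% of the windows of all tested genes. Of 12 tested metallothionein and zinc transporter genes, 4 were higher and 0 lower, all of them metallothioneins. MT2A had 46.1, 42.0, 40.5 and 47.4 CPM with SLC-0111, against 23.7, 20.5, 22.5 and 20.1 CPM with DMSO (log2 1.02 ± 0.08, adjusted p = 2.4e-09), and MT1G and MT1F rose by log2 1.16 and 0.74. Metallothionein genes are so alike that reads can be assigned to the wrong member. The MT2A promoter (RefSeq, GRCh38.p14, chr16:56608423-56608473, plus strand) holds 2 copies of TGCGCNC, the core of the element that the zinc sensor MTF1 is known to bind, and these are in capitals.
MT2A: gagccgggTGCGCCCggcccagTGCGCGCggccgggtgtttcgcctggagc
That core is common, with a share of 29.9% of the windows of tested genes and 29.1% of those called higher. Of 8 tested aryl hydrocarbon receptor genes 2 were higher and 0 lower, with a median of log2 0.09. One of the 2, CYP1A1, had 125, 117, 126 and 133 CPM with SLC-0111, against 50.8, 47.2, 43.3 and 45.8 CPM with DMSO (log2 1.42 ± 0.07, adjusted p = 2.95e-13). Among 10 tested genes of the nuclear receptors for foreign compounds 4 were higher and 1 lower, and NR1I3 (CAR) and NR1I2 (PXR) rose by log2 1.62 and 0.65. CYP3A7, a fetal enzyme of their target family, was the lower one, at 0.234 ± 0.0874 CPM with SLC-0111, against 0.644 ± 0.111 CPM with DMSO (log2 −1.37 ± 0.35, adjusted p = 0.00522). The organic anion carrier SLC22A7 had 4.59, 5.14, 3.98 and 4.65 CPM with SLC-0111, against 1.15, 1.07, 1.19 and 1.41 CPM with DMSO (log2 1.91 ± 0.14, adjusted p = 1.24e-09).

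Genes of cell division were lower with SLC-0111 by small steps. Of the 27 mitotic kinesin, spindle and condensin genes 24 were called lower and 0 higher, of 25 cyclin, mitotic kinase and anaphase promoting complex genes 17 and 0, and of 21 kinetochore and centromere genes 13 and 0. The medians were log2 −0.30, −0.22 and −0.25. PLK1, a kinase with roles from mitotic entry to cytokinesis, had 67.9, 61.7, 60.2 and 63.7 CPM with SLC-0111, against 94.8, 87.9, 88.4 and 88.4 CPM with DMSO (log2 −0.50 ± 0.06, adjusted p = 7.21e-07). Cyclin B1 (CCNB1) fell, at log2 −0.44 and the ubiquitin conjugating enzyme UBE2S at −0.45. The motor KIF20A, which acts in cytokinesis, had 156, 143, 137 and 145 CPM with SLC-0111, against 196, 194, 195 and 185 CPM with DMSO (log2 −0.40 ± 0.06, adjusted p = 8.8e-06). At the kinetochore, CENPW fell, at log2 −0.50, CENPM at −0.44 and the centromeric histone CENPA at −0.38. The proliferation marker MKI67 was at 425 ± 25.0 CPM with SLC-0111, against 521 ± 3.65 CPM with DMSO (log2 −0.29 ± 0.06, adjusted p = 0.000543). Without SLC-0111 replicate 4 the numbers lower were 23, 15 and 14.

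The promoters of the mitotic genes often hold TTTGAA, the core of the cell cycle homology region, through which such genes are known to be kept low outside G2 and M phase. It is in 37 of the 61 windows found for the tested members of the 3 lists (60.7%) and in 29 of the 45 whose gene was called lower, against 10.2% of the windows of all tested genes. The CCAAT box of NF-Y is in 44 of the 61 (72.1%), against 36.4%. Both elements are short and were searched on both strands. Stretches with TTTGAA in capitals are shown for a kinase, a cyclin, a kinesin and the centromeric histone (RefSeq, GRCh38.p14), at chr16:23678838-23678887, plus strand (PLK1), chr15:59105095-59105144, plus strand (CCNB2), chr15:69414272-69414321, plus strand (KIF23) and chr2:26786016-26786055, plus strand (CENPA).
PLK1: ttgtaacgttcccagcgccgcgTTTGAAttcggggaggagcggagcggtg
CCNB2: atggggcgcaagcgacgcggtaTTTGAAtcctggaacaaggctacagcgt
KIF23: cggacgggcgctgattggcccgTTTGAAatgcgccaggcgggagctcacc
CENPA: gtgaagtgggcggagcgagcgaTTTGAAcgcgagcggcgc
The core begins 29 bases before the start in both PLK1 and CCNB2, 55 in KIF23 and 18 in CENPA. CCNB2 fell, at log2 −0.30 and KIF23 at −0.35, and their groups did not overlap.

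Replication genes were called lower as well. Of 23 genes that load or form the replicative helicase 14 were lower and 0 higher, of 21 polymerase, clamp and ligase genes 13 and 0, and of 11 genes of deoxynucleotide supply 8 and 0. The helicase subunit MCM2 fell, at log2 −0.41 and MCM4 at −0.39. The sliding clamp PCNA had 342, 319.8, 287 and 333 CPM with SLC-0111, against 415, 412, 405 and 394 CPM with DMSO (log2 −0.34 ± 0.10, adjusted p = 0.0138). FEN1, the flap endonuclease of lagging strand synthesis, had 60.6, 55.7, 53.1 and 59.0 CPM with SLC-0111, against 83.5, 82.7, 79.7 and 77.5 CPM with DMSO (log2 −0.50 ± 0.10, adjusted p = 0.000785). The polymerase subunit POLD3 and the helicase cofactor GINS2 fell, at log2 −0.50 and −0.49. Among the enzymes that make DNA precursors, DTYMK and TK1 fell, at log2 −0.34 and −0.31. PCNA was not called without SLC-0111 replicate 4 (adjusted p = 0.0715). Replicate 4 was the lowest of the SLC-0111 libraries for PLK1, KIF20A, PCNA and FEN1. The E2F motif GCGGGAA is in 14 of the 37 windows found for the 2 replication lists (37.8%), in 7 of the 22 whose gene was called (31.8%) and in 9.76% of those of all tested genes. It is shown in capitals for PCNA (chr20:5126653-5126703, minus strand) and GINS2 (chr16:85688957-85689007, minus strand), from the same source.
PCNA: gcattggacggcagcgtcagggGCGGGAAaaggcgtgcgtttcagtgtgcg
GINS2: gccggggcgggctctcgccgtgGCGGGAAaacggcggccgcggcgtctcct
Of 29 G1 cyclin, inhibitor and MYC network genes 3 were higher and 8 lower. MYCN fell to 12.2 ± 1.25 CPM with SLC-0111, against 18.5 ± 0.861 CPM with DMSO (log2 −0.61 ± 0.09, adjusted p = 3.81e-05), and the CDK4 and CDK6 inhibitors moved apart, CDKN2B at log2 0.97 and CDKN2C at −0.63. Cyclin D2 (CCND2) rose by log2 0.69. Of 21 targets of p53, the stress activated tumour suppressor, 1 was higher and 4 were lower. Without SLC-0111 replicate 4, and also with the share of protein-coding counts as a covariate, 3 were higher and 3 lower. The higher one was PMAIP1 (NOXA), at 1.94 ± 0.270 CPM with SLC-0111, against 0.794 ± 0.0967 CPM with DMSO (log2 1.29 ± 0.18, adjusted p = 1.09e-05), and the lower ones included PHLDA3 (log2 −0.44) and the death receptor FAS (−0.24).

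The list with the largest share of lower genes after the mitotic motors was the spliceosome. Of its 33 genes 28 were called lower and 0 higher (84.8%), with a median of log2 −0.29. Of all tested genes over 100 CPM 23.3% were lower, and of those at 10 to 100 CPM 17.6%. SF3A3, a subunit of the U2 particle, had 149, 138, 131 and 144 CPM with SLC-0111, against 211, 201, 199 and 197 CPM with DMSO (log2 −0.52 ± 0.06, adjusted p = 2.71e-06). The Sm ring protein SNRPG, shared by the small nuclear particles, fell, at log2 −0.47, and HNRNPM, a regulator of alternative splicing, at −0.45. In hypoxia 6 of the 33 were lower and 1 higher, and in 8 the effect differed between the oxygen conditions.

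**Figure D3:**
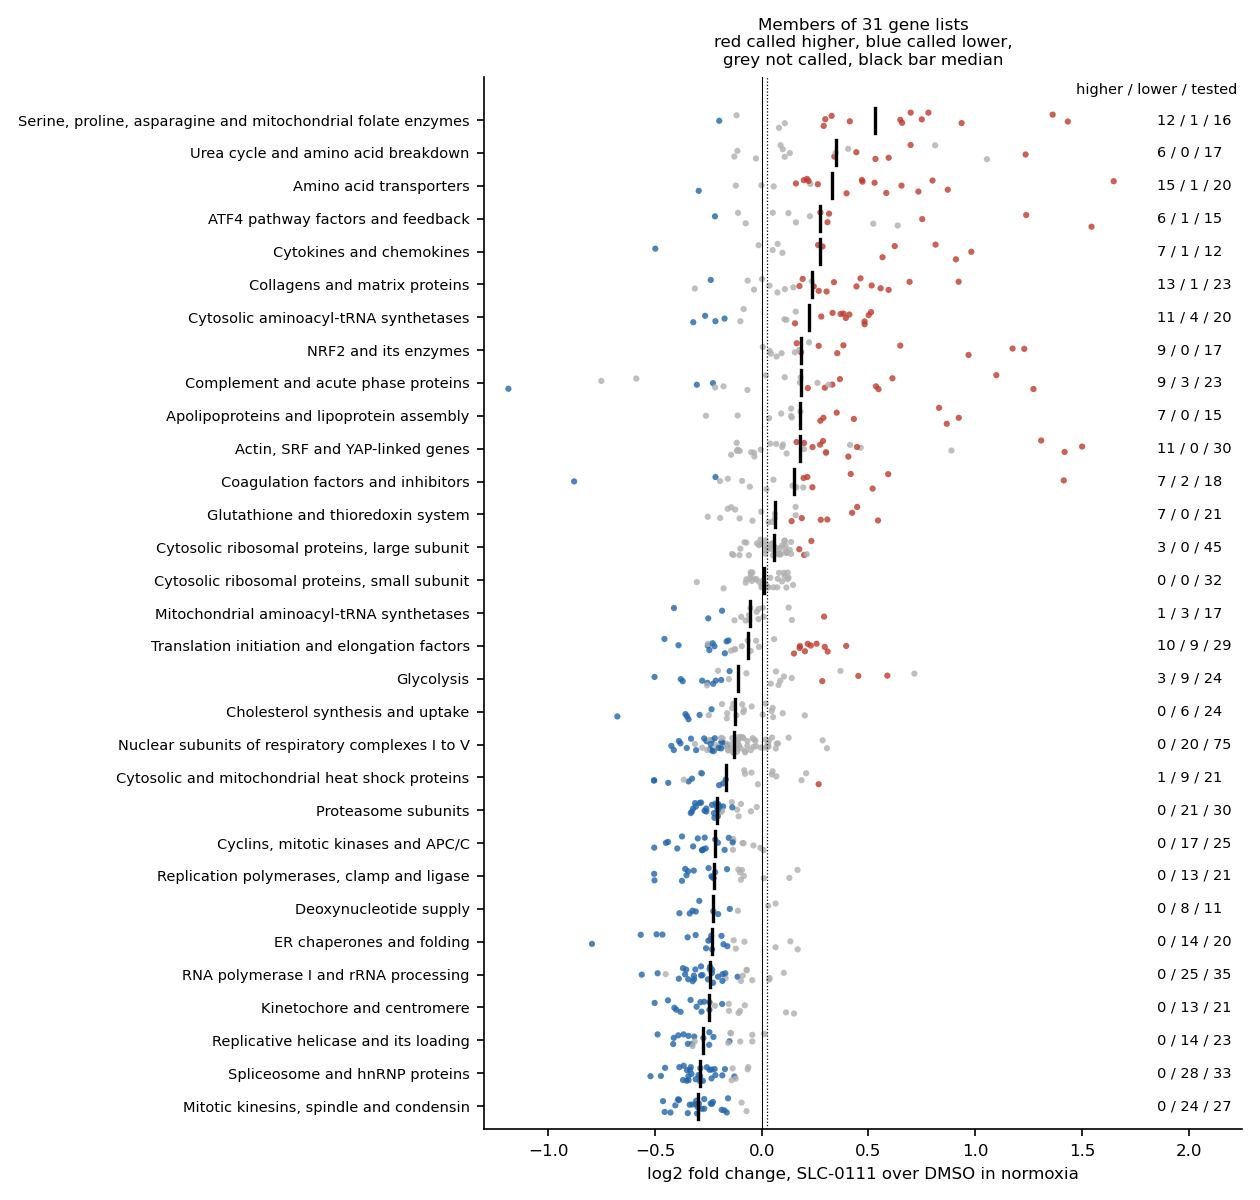
Each row is 1 of 31 gene lists, each point a tested member at its log2 fold change, SLC-0111 over DMSO in normoxia; red points were called higher, blue lower and grey not, black bars are medians and the dotted line is the median of all tested genes (0.02). The numbers at the right count members higher, lower and tested; the spliceosome row has 28 of 33 lower and the row of serine, proline, asparagine and folate enzymes 12 of 16 higher.

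Much of the machinery for making and removing proteins was called lower as well. Of 30 proteasome subunits 21 were lower and 0 higher, with changes of log2 −0.33 to −0.02. They came from the catalytic core and from the regulatory cap alike. PSMC3, an ATPase of the cap, had 133, 116, 108 and 120.4 CPM with SLC-0111, against 152, 151, 157 and 141 CPM with DMSO (log2 −0.33 ± 0.06, adjusted p = 0.000332), and PSMB6, a catalytic subunit of the core, fell, at log2 −0.32. Without SLC-0111 replicate 4, 17 were lower. In hypoxia 0 of the 30 were called by edgeR, DESeq2 or limma-voom, with 1 higher and 1 lower at an unadjusted p under 0.05. Of 35 genes of RNA polymerase I and ribosomal RNA processing 25 were lower and 0 higher, among them GAR1 and NOP16 at log2 −0.56 and −0.49. The ribosomal proteins did not share this fall. Of 45 large subunit genes 3 were higher (RPL4, RPL12 and RPL22, log2 0.20, 0.23 and 0.18, with RPL4 called in 2 of the 8 fits that leave out 1 library) and 0 lower, and of 32 small subunit genes 0 were called by edgeR, with 2 in each direction at an unadjusted p under 0.05 and 2 (DESeq2) or 1 (limma-voom) lower by the other tools. Without SLC-0111 replicate 4 the large subunit had 11 higher and 0 lower, and the small subunit 2 and 1. With library size scaling the large subunit had 0 and 0, and the small subunit 0 and 2. With the share of protein-coding counts as a covariate the large subunit had 19 higher and 0 lower, and the small subunit 9 and 1. Reads of ribosomal protein genes may be shared with their many pseudogenes.

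Translation factors went both ways, 10 higher and 9 lower of 29. EEF2, the elongation factor that moves the ribosome along, rose (log2 0.26 ± 0.06, adjusted p = 0.00197). The helicase EIF4A2 rose by log2 0.40. EIF5A, a factor that helps ribosomes through difficult stretches, fell to 209 ± 18.7 CPM with SLC-0111, against 286 ± 16.1 CPM with DMSO (log2 −0.46 ± 0.09, adjusted p = 0.00173). EIF2S1, the eIF2α subunit itself, and the exchange factor subunit EIF2B2 fell, at log2 −0.25 and −0.39. With library size scaling the split was 4 higher and 11 lower.

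Most chaperones of the endoplasmic reticulum (ER), and a smaller share of the heat shock proteins of cytosol and mitochondria, were called lower. Of 20 ER chaperone and folding genes 14 were lower and 0 higher, against 11 and 1 without SLC-0111 replicate 4. SDF2L1 had 35.8, 32.4, 26.8 and 36.4 CPM with SLC-0111, against 61.4, 53.6, 59.0 and 52.9 CPM with DMSO (log2 −0.80 ± 0.13, adjusted p = 0.000195), and CRELD2, MANF and the lectin chaperone CALR fell, at log2 −0.57, −0.47 and −0.49. HSPA5 (BiP), the main ER chaperone, fell, at log2 −0.23, and it was not called without SLC-0111 replicate 4 (adjusted p = 0.094) or DMSO replicate 1 (0.0678). Of 19 genes of the IRE1 and ATF6 branches and of ER-associated degradation, 3 were higher and 1 lower. Of 21 heat shock proteins of cytosol and mitochondria 1 was higher and 9 lower, among them CHORDC1 and HSPE1 at log2 −0.50 and −0.50. Without SLC-0111 replicate 4 the counts of the heat shock proteins were 1 and 7.

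Of 75 nuclear genes for respiratory complexes I to V, 20 were lower (26.7%) and 0 higher. Of all tested genes 11.2% were lower, of those at 10 to 100 CPM 17.6% and of those over 100 CPM 23.3%. Of the 75, 6 were lower without SLC-0111 replicate 4, 35 with library size scaling and 5, beside 2 higher, with the share of protein-coding counts as a covariate. Among all tested genes, the numbers lower in these fits were 1597, 3141 and 1421, against 2067 in the main fit. Whether the list fell more often than other genes of like level was not tested. ATP5F1D, a subunit of the ATP synthase, had 44.4, 38.6, 35.0 and 43.6 CPM with SLC-0111, against 57.3, 54.2, 53.1 and 51.6 CPM with DMSO (log2 −0.42 ± 0.08, adjusted p = 0.000523), and it was called in 8 of the 8 fits that leave out 1 library. Of 15 tested transcripts of the mitochondrial genome 2 were higher, MT-RNR1 (the small ribosomal RNA) and MT-CO1, by log2 0.70 and 0.37. MT-RNR1 was called in 2 and MT-CO1 in 5 of the 8 fits that leave out 1 library. Without replicate 4 edgeR called 0 of the 15, with 2 higher at an unadjusted p under 0.05. The mitochondrial ribosomal RNAs took 6.2, 8.6, 12.6 and 7.8% of the counts with SLC-0111, against 5.7, 6.1, 6.4 and 6.6% with DMSO. SLC-0111 replicate 1 lay inside the range of DMSO by this share.

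Glycolysis had 3 of 24 genes higher and 9 lower. Of the 9 lower ones, 6 act from triose phosphate onwards. PGAM1 had 318, 280.0, 256 and 294 CPM with SLC-0111, against 418, 410.5, 401 and 395 CPM with DMSO (log2 −0.50 ± 0.06, adjusted p = 6.3e-07), and pyruvate kinase PKM fell, at log2 −0.38. The liver glucose carrier SLC2A2 and the phosphofructokinase PFKP rose by log2 0.45 and 0.59. SLC16A1 (MCT1), which moves lactate with a proton, fell to 312 ± 27.3 CPM with SLC-0111, against 426 ± 10.9 CPM with DMSO (log2 −0.45 ± 0.05, adjusted p = 1.49e-06), and its relative SLC16A4 rose by log2 0.54. Of the 13 tested bicarbonate, proton and lactate carriers, 3 were higher and 4 lower, including the bicarbonate cotransporter SLC4A8 (log2 −0.50) among the lower.

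Genes of fatty acid synthesis had 3 of 18 higher and 6 lower, and 5 higher and 4 lower with the covariate. The lipogenic regulator SREBF1 had 66.4, 69.3, 50.2 and 62.9 CPM with SLC-0111, against 92.3, 94.0, 88.6 and 95.2 CPM with DMSO (log2 −0.58 ± 0.08, adjusted p = 8.43e-06). The carbohydrate responsive factor MLXIPL rose by log2 0.56. Of 24 cholesterol genes 6 were lower and 0 higher, against 5 lower and 1 higher without SLC-0111 replicate 4. In fatty acid oxidation 5 of 20 were higher and 4 lower. The regulator PPARA rose by log2 0.50.

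Genes of liver function were called higher more often than lower. Of 17 tested genes of the urea cycle and amino acid breakdown 6 were higher and 0 lower (1 lower at an unadjusted p under 0.05, by DESeq2 and by limma-voom), among them CPS1, ASS1 and HPD at log2 0.53, 0.59 and 0.70. Of 15 tested apolipoprotein and lipoprotein assembly genes 7 were higher and 0 lower. MTTP, which loads lipid onto apolipoprotein B, had 79.3, 78.0, 69.0 and 80.5 CPM with SLC-0111, against 39.3, 39.6, 41.9 and 40.7 CPM with DMSO (log2 0.92 ± 0.06, adjusted p = 2.86e-11), and APOC3 and the hepatic lipase LIPC rose by log2 0.83 and 0.87. Of 18 tested coagulation genes 7 were higher and 2 lower, against 10 and 1 without SLC-0111 replicate 4. SERPINC1 (antithrombin) had 23.2, 21.6, 20.5 and 22.0 CPM with SLC-0111, against 8.65, 7.91, 9.08 and 7.09 CPM with DMSO (log2 1.41 ± 0.07, adjusted p = 1.75e-12), while CPB2, a carboxypeptidase that slows clot lysis, had 25.2, 22.3, 15.9 and 21.0 CPM with SLC-0111, against 35.7, 40.6, 38.3 and 39.2 CPM with DMSO (log2 −0.88 ± 0.10, adjusted p = 6.88e-07). Of 23 tested complement and acute phase genes 9 were higher and 3 lower, and without SLC-0111 replicate 4 the counts were 11 and 0, with 2 lower at an unadjusted p under 0.05. Complement C3 had 38.7, 38.8, 39.1 and 39.4 CPM with SLC-0111, against 15.7, 15.5, 16.5 and 16.7 CPM with DMSO (log2 1.27 ± 0.05, adjusted p = 4.8e-14). The lineage factors changed little, with HNF4A higher and FOXA1 and SOX9 lower (log2 −0.26 and −0.33) of 19 tested, and SOX9 was not called without SLC-0111 replicate 4 (adjusted p = 0.0642). The fetal chromatin protein HMGA2 had 249.9, 250.2, 205 and 236 CPM with SLC-0111, against 337, 354, 346 and 348 CPM with DMSO (log2 −0.56 ± 0.07, adjusted p = 1.52e-06).

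Many matrix, adhesion and cytoskeletal genes were called higher. Of 23 tested collagen and matrix protein genes 13 were higher and 1 lower. Fibronectin FN1, a gene with very high counts, was at 17064 ± 1415 CPM with SLC-0111, against 11598 ± 246 CPM with DMSO (log2 0.56 ± 0.06, adjusted p = 2.79e-07). HSPG2 (perlecan), a basement membrane proteoglycan, had 599.9, 608, 686 and 603 CPM with SLC-0111, against 381, 393, 387 and 385 CPM with DMSO (log2 0.69 ± 0.05, adjusted p = 6.13e-10). The collagen chain COL6A2 rose by log2 0.59, and the cartilage collagen COL2A1 was the lower member, at log2 −0.24. The crosslinking enzyme LOXL1 rose to 8.00 ± 1.25 CPM with SLC-0111, against 3.29 ± 0.327 CPM with DMSO (log2 1.30 ± 0.11, adjusted p = 8.43e-09). Of 30 actin, SRF and YAP-linked genes 11 were higher and 0 lower, and with library size scaling 7 and 4. The smooth muscle actin binder TAGLN had 43.3, 39.4, 64.9 and 43.4 CPM with SLC-0111, against 21.6, 18.9, 19.6 and 17.5 CPM with DMSO (log2 1.31 ± 0.16, adjusted p = 2.9e-05), and the actin crosslinker FLNC rose by log2 1.42. For TAGLN, replicate 4 was well above the other SLC-0111 libraries. The tight junction protein CLDN1 rose by log2 0.89 and the integrin chain ITGA2 by 0.59. The simple epithelial keratins went the other way. KRT8 had 3239, 3040.2, 3065 and 3306 CPM with SLC-0111, against 4848, 4481, 4366 and 4411 CPM with DMSO (log2 −0.52 ± 0.07, adjusted p = 3.7e-06), and its partner KRT18 fell, at log2 −0.50. The groups did not overlap for either keratin.

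Of 28 tested receptor tyrosine kinases and ERK feedback genes 7 were higher and 7 lower, and with library size scaling 4 and 8. EGFR had 103, 107, 114 and 103 CPM with SLC-0111, against 71.3, 71.6, 71.2 and 72.4 CPM with DMSO (log2 0.58 ± 0.05, adjusted p = 4.65e-09), and its relative ERBB2 rose by log2 0.51. The ERK-induced factors ETV5 and FOSL1 fell, at log2 −0.64 and −0.63. Outside the list, DUSP16, a phosphatase of stress kinases, had 519, 537, 486 and 505 CPM with SLC-0111, against 337, 337, 343 and 343 CPM with DMSO (log2 0.59 ± 0.10, adjusted p = 0.000197). Of 26 tested TGF-beta and BMP genes 5 were higher and 4 lower. The ligands TGFB2 and TGFB3 fell, at log2 −0.78 and −0.95, and the ligand BMP2 rose by 0.65. Outside the list, PMEPA1, a feedback inhibitor of the pathway, had 13.9, 14.2, 19.9 and 13.3 CPM with SLC-0111, against 6.01, 7.18, 5.52 and 5.29 CPM with DMSO (log2 1.38 ± 0.24, adjusted p = 0.00106), with replicate 4 the highest. Without that library it had log2 1.21 and adjusted p = 0.00536. Of 18 tested WNT and beta-catenin targets 1 was higher and 8 lower, with the secreted inhibitor NOTUM at log2 −0.48, and without SLC-0111 replicate 4 the counts were 2 and 5.

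Of 12 tested cytokine and chemokine genes 7 were higher and 1 lower. IL32 had 45.7, 43.6, 56.2 and 49.4 CPM with SLC-0111, against 25.4, 25.8, 24.5 and 23.3 CPM with DMSO (log2 0.98 ± 0.08, adjusted p = 1.89e-09), and the receptors LIFR and IL6R rose by log2 0.81 and 0.62. The cytokine LIF was the member that fell, by log2 −0.50. Replicate 4 was the highest of the SLC-0111 libraries for IL32. TNFSF10 (TRAIL), a death receptor ligand, had 6.02, 5.93, 6.49 and 6.21 CPM with SLC-0111, against 2.94, 2.53, 2.21 and 2.20 CPM with DMSO (log2 1.34 ± 0.13, adjusted p = 5.4e-08).

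Among long noncoding RNAs the rule for named genes gave as its largest rise MIR100HG, the host of a microRNA cluster, with 2.25, 2.84, 3.93 and 2.30 CPM with SLC-0111, against 1.15, 1.30, 1.41 and 1.90 CPM with DMSO (log2 0.99 ± 0.21, adjusted p = 0.00103). LINC00886 rose by log2 0.83. Replicate 4 was the highest of the SLC-0111 libraries for MIR100HG. Of 27 tested long noncoding RNAs of the list 6 were higher and 1 lower, with a median of log2 0.29. With the share of protein-coding counts as a covariate 8 were higher and 0 lower, with a median of log2 0.08. Without SLC-0111 replicate 4 edgeR called 8 and 0 (4 lower at an unadjusted p under 0.05), with a median of log2 0.22. The small nucleolar RNA hosts GAS5, SNHG8 and SNHG7 rose by log2 0.46, 0.40 and 0.37. ABALON, which overlaps BCL2L1 on the other strand, fell, at log2 −0.75, as did BCL2L1 (log2 −0.19 ± 0.05, adjusted p = 0.004). The strand setting of the count is not given in the sources used here, so reads of such a pair cannot be told apart.

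**Figure D4:**
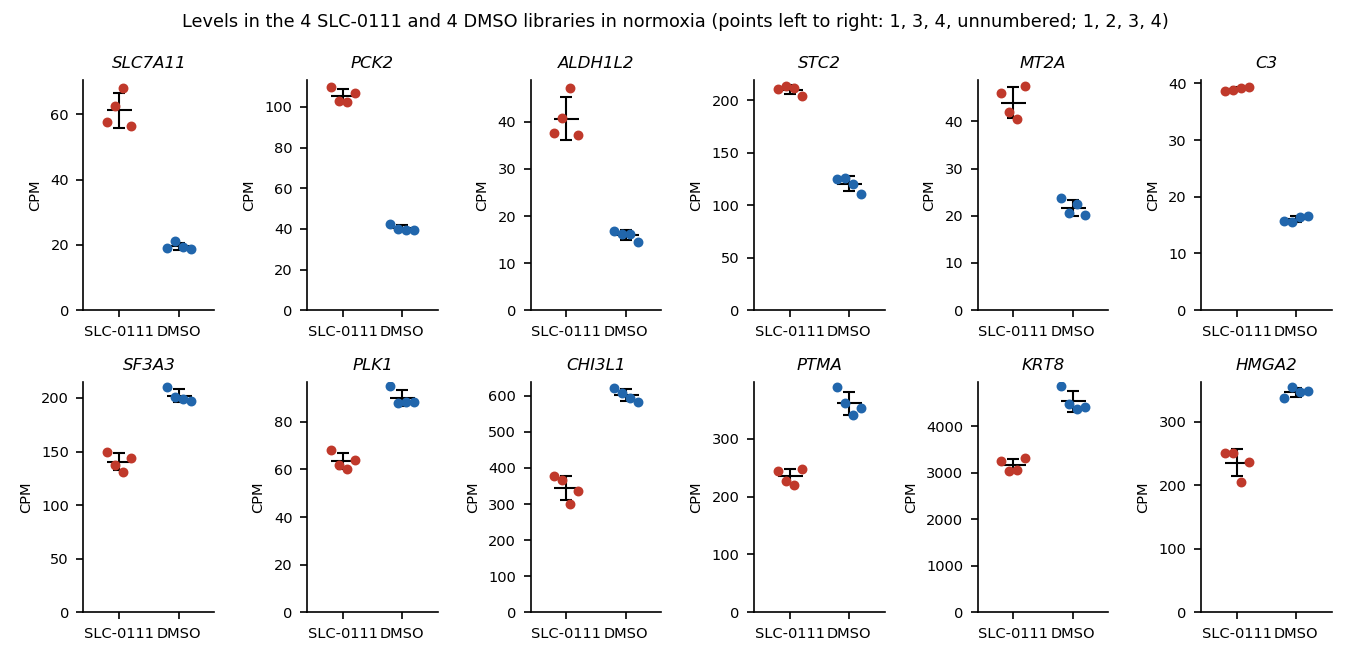
Levels in CPM of 12 genes in the 4 SLC-0111 libraries (red, left) and the 4 DMSO libraries (blue, right) in normoxia, 1 point per library, with the mean and SD as black bars and each axis starting at 0. In each of the 12 panels the groups do not overlap, from SLC7A11, C3 and MT2A, higher with SLC-0111, to SF3A3, PTMA and KRT8, lower.

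Of single genes, the hyaluronan synthase HAS3 had the largest fall among called genes at 5 CPM or more, with 11.7, 11.6, 10.1 and 12.0 CPM with SLC-0111, against 26.0, 26.3, 27.9 and 27.1 CPM with DMSO (log2 −1.25 ± 0.14, adjusted p = 3.5e-06). Of 23 tested motile cilium genes 4 were higher and 4 lower, with a median of log2 0.06, and without SLC-0111 replicate 4 the counts were 1 and 4. Other large falls were those of FOXJ1, a regulator of motile cilia (log2 −1.21), the ciliary dynein DNAH10 (−1.10) and the orphan receptor GPR83 (−0.88). The homeobox factor IRX3 and the calcium binding protein S100A4 fell, at log2 −0.89 and −0.82, and the myosin binding protein MYBPH had 67.0, 66.3, 49.9 and 63.7 CPM with SLC-0111, against 116, 109, 110.4 and 110.0 CPM with DMSO (log2 −0.85 ± 0.07, adjusted p = 4.84e-09). Among genes with high counts, the secreted glycoprotein CHI3L1 had 377, 366, 300.3 and 336 CPM with SLC-0111, against 621, 608, 594 and 583 CPM with DMSO (log2 −0.80 ± 0.06, adjusted p = 6.66e-10). Replicate 4 was the lowest for MYBPH and CHI3L1. PTMA, which encodes the acidic nuclear protein prothymosin alpha, had 244, 228, 219 and 248 CPM with SLC-0111, against 389, 361, 341 and 353 CPM with DMSO (log2 −0.62 ± 0.08, adjusted p = 8.75e-06), and the outer mitochondrial membrane cytochrome CYB5B fell, at log2 −0.61. The genes with high counts that rose included the retinal dehydrogenase ALDH1A1 (log2 0.52 ± 0.05, adjusted p = 4.72e-08) and the heterochromatin protein CBX5 (log2 0.58 ± 0.05, adjusted p = 1.09e-08).

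The effect of SLC-0111 was tested against its effect in hypoxia, with a separate DMSO group there. One library of that group, hypoxia DMSO replicate 3, held only 3.3 M counts, and without it the number of genes whose effects differed was 1063 in place of 1102. In 1102 genes (5.99%) the 2 effects differed, with the log2 fold change higher in normoxia in 575 (3.13%) and lower in 527 (2.87%). That number was 691 without normoxia DMSO replicate 2, 708 without hypoxia SLC-0111 replicate 3 and 2040 without hypoxia DMSO replicate 1. In hypoxia 2988 genes (16.3%) were called. Of the 2271 genes higher in normoxia, 883 were also higher in hypoxia, which is 38.9% of the normoxia and 52.5% of the hypoxia genes, and 44 were lower there. Of the 2067 lower genes 437 were lower in both, 21.1% of the normoxia and 33.4% of the hypoxia genes, and 39 were higher in hypoxia. By the test of the difference, 368 of the higher and 346 of the lower genes differed. In 355 of the 368 the log2 fold change was higher in normoxia than in hypoxia, and in 336 of the 346 it was lower. Both sets were chosen by their call in normoxia, so this lean was partly set by the choice.

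TNFSF10 rose in normoxia (log2 1.34 ± 0.13) and fell in hypoxia (log2 −0.43 ± 0.08; adjusted p of the difference = 2.53e-07). AQP1 rose in normoxia (log2 0.83 ± 0.10) and fell in hypoxia (log2 −0.52 ± 0.08; adjusted p of the difference = 1.59e-06). NEBL rose in normoxia (log2 0.93 ± 0.07) and fell in hypoxia (log2 −0.29 ± 0.06; adjusted p of the difference = 3.28e-08). For the peptide carrier SLC15A1 the change was log2 1.37 in normoxia and 0.22 in hypoxia (difference log2 1.15 ± 0.14, adjusted p = 3.36e-05). TNFSF10 is the death ligand named above, AQP1 a water channel and NEBL an actin filament protein. Annexin ANXA1 and the kinase ALPK2 were also named by the rule. In the other direction, CPB2 fell in normoxia (log2 −0.88 ± 0.10) and rose in hypoxia (log2 0.42 ± 0.11; adjusted p of the difference = 1.29e-05). GPR83 fell in normoxia (log2 −0.88 ± 0.07) and was not called in hypoxia (log2 0.17 ± 0.07; adjusted p of the difference = 1.92e-06). EPB41L3 fell in normoxia (log2 −0.73 ± 0.12) and rose in hypoxia (log2 0.80 ± 0.17; adjusted p of the difference = 0.000129). EPB41L3 is a protein of the membrane skeleton. FHDC1, CATSPERG and PMEL were the others. ETV5 had a larger difference (log2 −1.31) but lay under the 5 CPM that the rule asks for. In the gene lists, 7 of 18 WNT and beta-catenin targets and 10 of 27 motors and spindle genes had a lower change in normoxia. Over all tested genes this share was 2.87%. Other lists had like counts, among them 8 of 34 lysosome and autophagy genes and 7 of 28 receptor tyrosine kinase and ERK feedback genes. A higher change in normoxia was seen in 5 of 16 serine, proline, asparagine and folate enzymes and 7 of 20 amino acid transporters. It was also seen in 6 of 23 collagen and matrix protein genes, and in 3.13% of all tested genes. SHMT2 had log2 0.78 in normoxia and 0.45 in hypoxia (difference log2 0.33 ± 0.08, adjusted p = 0.0192). PSAT1 was not called in the difference (difference log2 0.08 ± 0.07, adjusted p = 0.581). Of 25 tested genes that hypoxia induces through HIF, those called in normoxia were 5 higher and 1 lower. The number higher was 2 with library size scaling, beside 2 lower, and also 2 with the covariate. In hypoxia 1 was higher and 8 were lower, and 7 had a higher change in normoxia than in hypoxia. STC2 is one of these, with log2 0.80 in normoxia and −0.20 in hypoxia (difference log2 1.00 ± 0.15, adjusted p = 0.000954).

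**Figure D5:**
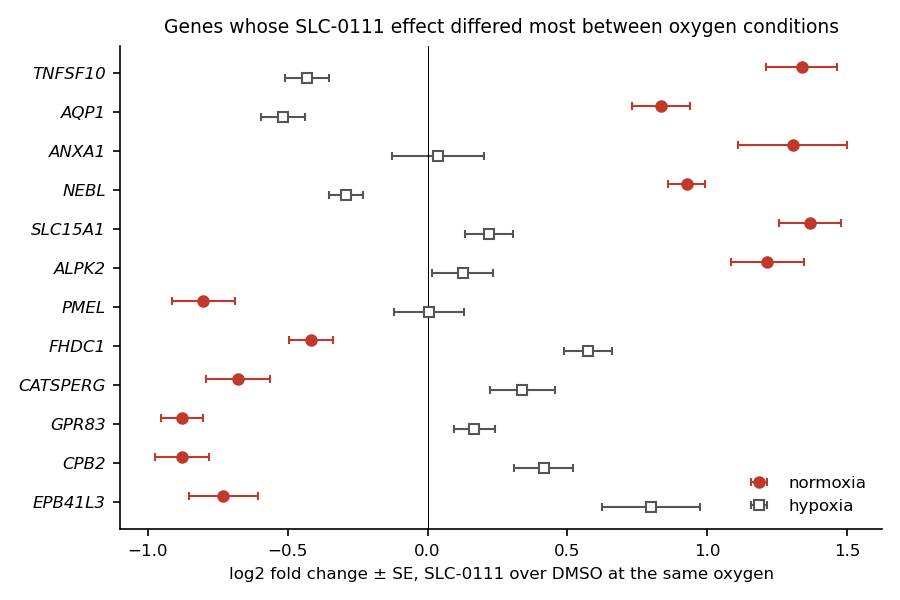
Log2 fold changes ± SE, SLC-0111 over DMSO, in normoxia (red circles) and in hypoxia (open squares) for the 12 genes named for the largest differences at 5 CPM or more in normoxia. TNFSF10, AQP1 and NEBL lie right of 0 in normoxia and left of it in hypoxia, and EPB41L3, CPB2, CATSPERG and FHDC1 the other way round.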

How the data were processed

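RNA of HUH6 cells was sequenced after 48 h with 100 µM SLC-0111 or DMSO. The authors deposited a table of raw read counts per gene for 58735 genes in 16 libraries. Per the submitters' processing notes, HISAT2, HTSeq, MultiQC 1.10.1, edgeR 3.4.0 and the build GRCh38 were named. The strand setting is not given in the sources used here. Libraries were grouped by the sample labels. In 2 columns, 1 of normoxia SLC-0111 and 1 of hypoxia DMSO, the replicate number conflicts with the labels, so each counts as an unnumbered library of its group.

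Counts were filtered with filterByExpr (18385 genes kept), scaled by TMM and tested with edgeR 4.0.16 (limma 3.58.1, R 4.3.3) by the quasi-likelihood test in 1 fit over the 4 groups of the 16 libraries, with 12 residual degrees of freedom and a common biological coefficient of variation of 0.074. P-values were adjusted by Benjamini-Hochberg over all tested genes, with a threshold of 0.05. The difference between oxygen conditions was a contrast of the same fit. The prior count for log2 CPM was 2. The procedure was tested on simulated data.

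Named genes were the 15 largest rises and 15 largest falls (at least 5 CPM, no overlap). With them went the 6 of highest mean CPM in each direction with an absolute log2 fold change of at least 0.5. Added were 5 long noncoding RNAs in each direction (at least 1 CPM), up to 4 called members per list, and CA9 and CA12. The rule also took the 6 largest differences in each direction among protein-coding genes called in both tests (at least 5 CPM). Some genes that the rule gives are not reported here. Other list members were named for their role after their values were seen. The comparison and the gene lists were chosen with earlier results of these data known. Alternatives were RLE or library size scaling, other filters, DESeq2 1.42.0, limma-voom, the normoxia libraries alone, the protein-coding share as a covariate, a replicate block and leaving out each library. Depth was 18.3 to 49.2 M counts, apart from 1 hypoxia DMSO library of 3.3 M. Same-numbered libraries were checked for shared deviations from their group means.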

Additional observations from a re-analysis of the deposited data

Results flagged for a closer look

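In 71 of the 205 genes looked at here the effect of SLC-0111 differed between normoxia and hypoxia. This is by the test of the difference itself (edgeR's quasi-likelihood test, adjusted over all 18385 genes). Over all tested genes the share that differed was 5.99%. Most named genes were chosen by their call in normoxia and some by a called difference, so the 71 were partly set by the choice. The values are the log2 fold change in normoxia minus that in hypoxia, and normoxia and hypoxia had separate SLC-0111 and DMSO libraries. Among genes with fitted changes of opposite sign in the 2 conditions, those higher in normoxia differed by 1.77 for TNFSF10, 1.35 for AQP1, 1.22 for NEBL, 1.04 for CDKN2B, 1.00 for STC2, 0.95 for CA12, 0.89 for SLC38A4, 0.30 for HNF4A and 0.25 for SLC7A5. Those lower in normoxia differed by −1.53 for EPB41L3, −1.31 for ETV5, −1.29 for CPB2, −1.06 for CP, −1.05 for GPR83, −1.02 for CATSPERG, −0.99 for FHDC1, −0.81 for PMEL and −0.75 for NOTUM. Further genes of this kind differed by −0.68 for SOX9, −0.29 for VARS and −0.24 for TFRC. In part of these genes the change in hypoxia was very small. It was log2 −0.07 for CDKN2B, −0.04 for CA12, −0.02 for HNF4A and −0.04 for SLC7A5. For PMEL it was 0.005, for VARS 0.03 and for TFRC 0.05. In such genes the opposite sign does not show a reversed effect. Genes with changes of the same sign and a higher log2 value in normoxia differed by 1.27 for ANXA1, 1.15 for SLC15A1, 1.09 for ALPK2, 0.81 for ALDH1L2, 0.75 for LOXL1, 0.63 for SLC7A11, 0.61 for ABCC3, 0.60 for LIFR and 0.58 for IL32. Next came differences of 0.57 for MTTP, 0.56 for CLDN1, 0.53 for PFKP, 0.52 for SERPINC1, 0.50 for SLC16A4, 0.45 for EGFR, 0.45 for PCK2, 0.43 for C3 and 0.42 for HEPH. Next came differences of 0.39 for SLC38A1, 0.38 for GLRX, 0.37 for CBX5, 0.33 for SHMT2, 0.31 for MTHFD2, 0.31 for FN1, 0.30 for MTHFD1L, 0.29 for PPARA and 0.27 for ALDH1A1. Next came differences of 0.27 for ERBB2, 0.24 for HSPG2 and 0.23 for IARS. Genes with changes of the same sign and a lower log2 value in normoxia differed by −0.76 for DNAH10, −0.65 for CA4, −0.60 for TGFB3, −0.56 for MYBPH, −0.46 for SREBF1, −0.43 for SF3A3, −0.41 for CYB5B, −0.40 for CENPW and −0.40 for HSPE1. After these came differences of −0.38 for PLK1, −0.38 for CHI3L1, −0.37 for S100A4, −0.36 for CENPM, −0.36 for EIF2B2, −0.34 for POLD3, −0.33 for CENPA, −0.30 for KIF23 and −0.29 for SLC16A1. After these came differences of −0.29 for KIF20A and −0.28 for SQSTM1.

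In 24 of 410 groups of 4 libraries 1 library lay far from the others for a named gene (a gap, as a share of the range, over Dixon's 95% limit). Chance alone gives about 1 in 20 such groups. Of the 24, 17 were in SLC-0111, and 9 of these were replicate 4. SLC-0111 replicate 1 was the highest of its group with 37.4 CPM for EIF4EBP1 (others 31.6 to 31.7) and 49.1 CPM for GOT1 (others 41.7 to 42.5). SLC-0111 replicate 1 was the lowest of its group with 3.12 CPM for FOSL1 (others 3.75 to 3.85). SLC-0111 replicate 3 was the highest of its group with 13.2 CPM for CATSPERG (others 11.4 to 11.5) and 0.827 CPM for TGFB2 (others 0.689 to 0.712). SLC-0111 replicate 3 was the lowest of its group with 14.7 CPM for CENPA (others 16.5 to 16.8), 11.7 CPM for COL6A2 (others 12.7 to 12.9) and 34.9 CPM for GLRX (others 38.8 to 39.2). SLC-0111 replicate 4 was the highest of its group with 72.8 CPM for CHORDC1 (others 61.6 to 63.2), 686 CPM for HSPG2 (others 599.9 to 608), 19.9 CPM for PMEPA1 (others 13.3 to 14.2), 64.9 CPM for TAGLN (others 39.4 to 43.4) and 330.3 CPM for TXNRD1 (others 276 to 281). SLC-0111 replicate 4 was the lowest of its group with 16.5 CPM for EIF2B2 (others 18.9 to 19.2), 1918 CPM for GPC3 (others 2296 to 2326), 17.7 CPM for MT1F (others 21.3 to 22.0) and 272 CPM for SLC16A1 (others 322 to 331). DMSO replicate 1 was the highest of its group with 0.810 CPM for CYP3A7 (others 0.576 to 0.610), 57.7 CPM for PECAM1 (others 51.7 to 52.6), 94.8 CPM for PLK1 (others 87.8 to 88.4), 0.938 CPM for PMAIP1 (others 0.734 to 0.768) and 47.9 CPM for SNHG8 (others 44.6 to 45.0). DMSO replicate 1 was the lowest of its group with 14.5 CPM for CA4 (others 16.7 to 17.0). DMSO replicate 2 was the lowest of its group with 18.3 CPM for GPR83 (others 19.3 to 19.4).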

How the results depend on the processing

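Of 198 named genes called in normoxia, 0 changed direction under any alternative, and 21 lost the call under at least 1. The counts of 2271 higher and 2067 lower genes became 1396 and 3141 with scaling by library size alone, which kept 61.4% of the higher and all of the lower calls. PARS2, RPL4, RPL12, RPL22 and SLC7A5 lost the call there. With a covariate for the share of protein-coding counts the counts were 2047 and 1421, and CP, FAS, HARS, HSPA5, LINC00886, MT-CO1, MTHFD1, PCNA, SOX9 and YARS2 lost the call. RLE scaling, both filters, DESeq2, limma-voom and the normoxia libraries alone left both counts within 1.5 times. Leaving out 1 library gave 3365 to 4210 called genes (1748 to 2080 higher, 1536 to 2130 lower). The cause of these shifts was not tested.

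The difference between oxygen conditions depended more on single libraries. Leaving out 1 of the 16 gave 691 to 2040 genes, 355 to 919 with the higher change in normoxia and 307 to 1121 with the lower. The libraries that moved the total by over 1.5 times were normoxia DMSO replicate 2 (691), hypoxia SLC-0111 replicate 3 (708) and hypoxia DMSO replicate 1 (2040). The count with the lower change also moved so far without normoxia DMSO replicates 1 (328), 2 (336) and 3 (345) and hypoxia SLC-0111 replicates 1 (336), 2 (318) and 3 (307), and became 350 with library size scaling.

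Same-numbered libraries shared deviations in part, and the main fit used no replicate block. Deviations of same-numbered libraries correlated at 0.224 (replicate 1), −0.0165 (replicate 3) and 0.278 (replicate 4). SLC-0111 replicates 1 and 4 correlated best with their own number, and replicate 3 with another. Libraries of different numbers correlated at −0.264 to 0.0484. A replicate block over the 6 numbered normoxia libraries gave 5195 genes (2724 higher, 2471 lower), against 3770 without the block (2008 and 1762). Genes near the floor of 3 counts, 0.0748 to 0.139 CPM in normoxia, are limited by depth.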

Other observations

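The shares of all tested genes called, 12.4% higher and 11.2% lower, are the background of the counts here. Of 12 tested iron genes 2 were higher and 2 lower (16.7% each way). Hephaestin (HEPH), a ferroxidase of iron export, and the hepatocyte transferrin receptor TFR2 rose by log2 0.79 and 0.79. Ceruloplasmin (CP), the ferroxidase of plasma, was lower at 1.03 ± 0.241 CPM with SLC-0111, against 1.72 ± 0.155 CPM with DMSO (log2 −0.77 ± 0.20, adjusted p = 0.0074), and the general transferrin receptor TFRC was lower at log2 −0.19. Of 22 tested interferon and antigen presentation genes 4 were higher and 0 lower by edgeR (1 lower at an unadjusted p under 0.05, 0 by DESeq2 and 0 by limma-voom), with beta-2-microglobulin B2M, the light chain of MHC class I, at log2 0.31. Of 34 lysosome and autophagy genes 4 were higher and 3 lower, near the background, and without SLC-0111 replicate 4 edgeR called 5 and 0 (3 lower at an unadjusted p under 0.05). The protease CTSB and the autophagy receptor SQSTM1 were among the higher, at log2 0.37 and 0.27.

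Of 18 tested clock genes 3 were higher and 2 lower, with the repressor PER3 at log2 −0.46 and the PAR domain factor TEF at 0.45; PER3 was called in 5 of the 8 fits that leave out 1 library. Of 20 tested hyaluronan and proteoglycan genes 7 were higher and 2 lower: against the fall of HAS3, the hyaluronan receptor CD44 and the proteoglycan SDC4 rose by log2 0.43 and 0.61. Of 21 tested replication-dependent histone genes, whose sequences are close copies, 2 were lower and 0 higher by edgeR (2 higher at an unadjusted p under 0.05, 0 by DESeq2 and 0 by limma-voom). The larger of the 2 falls was that of the linker histone HIST1H1B (log2 −0.60 ± 0.12, adjusted p = 0.000641).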
